A study of Homo sapiens with 6 samples.

Results

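The 8 metallothionein genes MT1A, MT1E, MT1F, MT1G, MT1H, MT1M, MT1X and MT2A were examined together with MTF1 and SLC30A1 in DU145 cells, an established human prostate cancer cell line. These 10 genes were taken by symbol from the 19727 rows of a table of FPKM values (fragments per unit of transcript length, relative to all fragments of a library). They were selected on results of the same contrast, the log2 fold change between the groups, in which MT1E was among the largest differences, and the rest were added as its family and regulators. Their difference between the groups is therefore given as a description, and nothing is read from how many of them passed a test.

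The cells were stable DU145 lines carrying lentivirus-circCSPP1 (OE), which overexpresses the circular RNA circCSPP1, or the control lentivirus-NC (NC), and 3 libraries of poly-T selected RNA were made from each. Both groups had gone through lentiviral transfection and puromycin selection, and each carried its own vector. The sources used here do not say whether the 3 libraries of a group came from separate cultures, so the p-values below measure the spread between these libraries. From the steps between low FPKM values, depth was estimated at 28900000 to 36400000 fragments per library, and the ranges of the groups overlapped.

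The epithelial markers KRT8, KRT18, EPCAM and CDH1 were present in all libraries and summed to 1730 to 1800 FPKM in NC and 715 to 854 FPKM in OE. KLK2 and KLK3, kallikrein genes of differentiated luminal prostate cells, were listed at 0 in all libraries. Of 5 fibroblast, 4 immune and 3 endothelial markers, all but COL1A1 and CD68 stayed below 1 FPKM in every library. The immune marker CD68 measured 43.85 to 49.73 FPKM in NC and 35.83 to 50.35 FPKM in OE. The summed fibroblast markers were 2.85 to 4.34 FPKM in NC and 1.3 to 1.97 FPKM in OE. The part of these marker differences in the values below was not tested, and in bulk RNA fewer cells of a type and less RNA per cell cannot be told apart. Replicate 1 of OE stood somewhat apart, with correlations across tested genes of 0.970 and 0.979 to the other libraries of its group, against 0.990 between those.

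Metallothioneins are small, cysteine-rich proteins that bind zinc, copper and cadmium and buffer free zinc in the cell. MTF1 is a zinc finger transcription factor that senses zinc and activates metallothionein genes through short promoter sequences called metal response elements. The zinc transporter SLC30A1 (ZnT1) moves zinc out of the cell, and its gene is a known target of MTF1. ZIP transporters (the SLC39 family) carry zinc into the cytosol, whereas ZnT transporters (the SLC30 family) carry it out of the cytosol or into vesicles. Benign prostate epithelium is known for its high zinc content, which is lower in prostate cancer.

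The 8 metallothionein genes lie in a cluster of 75998 bases on chromosome 16, chr16:56608199-56684196 (GRCh38, GENCODE release 29). MT2A, MT1E, MT1M, MT1A, MT1F, MT1H and MT1X are on the plus strand and MT1G is on the minus strand. MTF1 lies at chr1:37809567-37859620 and SLC30A1 at chr1:211571568-211578742, both on the minus strand. The principal transcript of each metallothionein gene has 3 exons and a coding sequence of 186 nt. Because near-identical copies could share reads, the start of the coding sequence is shown for the 6 genes with values above 0. All 27 bases lie in a single exon, and capitals mark the bases that differ from MT2A.
MT2A (chr16:56608656-56608682, plus strand): atggatcccaactgctcctgcgccgcc
MT1E (chr16:56625852-56625878, plus strand): atggaCcccaactgctcTtgcgccAcT
MT1M (chr16:56632732-56632758, plus strand): atggaCcccaactgctcctgcAccAcT
MT1A (chr16:56638739-56638765, plus strand): atggaCcccaactgctcctgcgccAcT
MT1F (chr16:56658059-56658085, plus strand): atggaCcccaactgctcctgcgccgcT
MT1X (chr16:56682541-56682567, plus strand): atggaCcccaactgctcctgcTcGCcT

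Over the whole coding sequence, the 28 pairs of the 8 genes were 88.7% to 95.2% identical. The similarity was broken up into short stretches. Of the 50-nt windows of the principal transcripts, 3.6% (MT1F) to 45.1% (MT1X) occurred unchanged in a transcript of another gene. Of the 100-nt windows, none did so in 6 of the 8 genes. The 2 exceptions were MT1H, with 3.4% of its windows shared with MT1HL1, and MT1X, with 19.1% shared with AC026461.1. With regard to shared sequence, MT1X is therefore the most exposed of the 6 expressed genes. How the authors assigned reads that fit several genes is not given in the sources used here.

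MT2A was the most abundant metallothionein in every library. It measured 579.5, 625.95 and 455.4 FPKM in NC replicates 1, 2 and 3, and 1273.08, 901.01 and 998.43 FPKM in OE replicates 1, 2 and 3. All OE libraries lay above all NC libraries. The means were 554 ± 88.2 and 1058 ± 193 FPKM (SD, n = 3 each), 1.91 times as high, with a log2 fold change of 0.93 (SE, the standard error, 0.16) on the scale of log2(FPKM + 1). Ranked by mean FPKM among all genes, MT2A stood at 109 in NC and 56 in OE. The largest MT2A value was that of OE replicate 1, the library that stood apart.

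MT1E differed most. It measured 126.03, 127.95 and 86.22 FPKM in NC and 486.78, 447.25 and 462.18 FPKM in OE. The groups were far apart and the OE libraries were close together. The means of 113 ± 23.6 and 465 ± 19.96 FPKM (SD, n = 3 each) gave a ratio of 4.10 and a log2 fold change of 2.05 (SE 0.15), the fifth highest among the tested genes. MT1E moved from rank 890 to rank 145 by mean FPKM.

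MT1X and MT1M differed by about as much as MT2A, at much lower levels. MT1X measured 16.49, 15.7 and 11.39 FPKM in NC and 35.1, 31.79 and 30.67 FPKM in OE, a log2 fold change of 1.12 (SE 0.15). MT1M measured 9.26, 7.02 and 6.34 FPKM against 15.47, 14.87 and 17.62 FPKM, a log2 fold change of 1.0035 (SE 0.15). Neither gene had overlapping groups. From the depth and the transcript length, the MT1M values correspond to 168 to 429 fragments per library, a counting error of 7.7% to 4.83%.

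MT1F and MT1A did not follow the same pattern. MT1F measured 6.94, 6.33 and 5.01 FPKM in NC and 7.92, 7.31 and 7.71 FPKM in OE. The groups did not overlap, but the log2 fold change was 0.29 (SE 0.13). MT1A measured 13.36, 11.17 and 10.23 FPKM against 11.68, 9.44 and 9.92 FPKM, and its groups overlapped (log2 fold change -0.15, SE 0.13). MT1A came next after MT1X in NC, where the ranges of both genes overlapped, and was below MT1M in all OE libraries. Among the 6 expressed metallothioneins MT1F had the lowest mean in both groups, and its range overlapped that of MT1M in NC.

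MT1G and MT1H were listed at 0 in all 6 libraries. A count of 0 allows up to 3 fragments, which for these transcripts is 0.203 to 0.261 FPKM, depending on the library. They were not tested. Among the other metallothioneins, MT1B, MT4 and MT1HL1 were listed at 0 as well. MT3, a metallothionein known from the brain, lay between 0 and 0.66 FPKM.

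**Figure D1:**
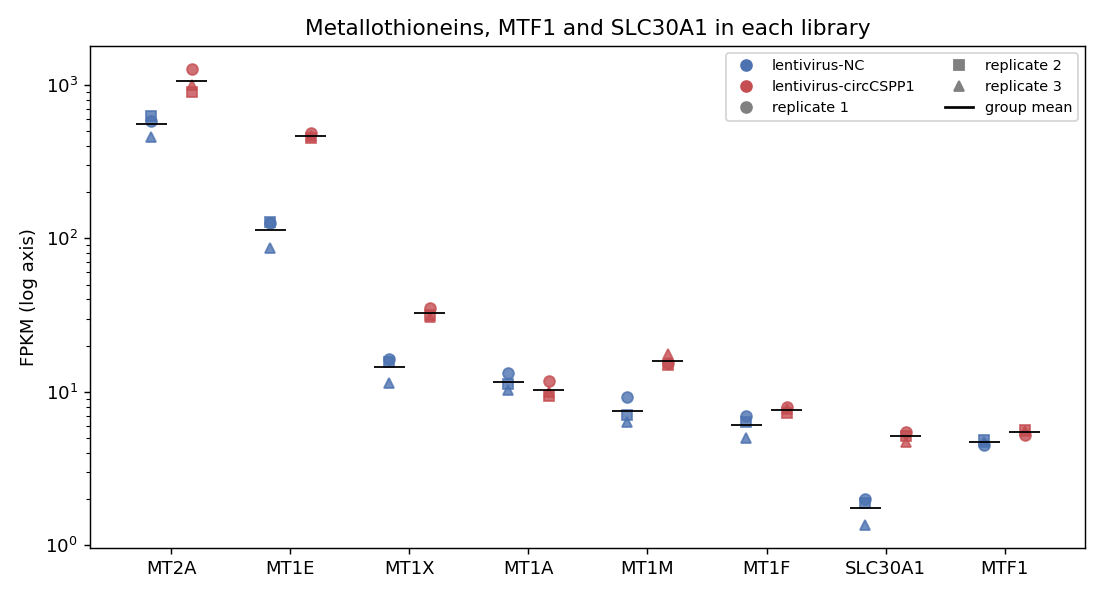
FPKM (log axis) of the 8 tested genes in each library, with lentivirus-NC in blue, lentivirus-circCSPP1 in red, a marker shape per replicate and a bar at each group mean. The red points lie above the blue ones for every gene except MT1A, with the widest gap for MT1E (86.22 to 127.95 against 447.25 to 486.78 FPKM).

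A sum over the family is less exposed to how reads were split between its members. It remains exposed to reads shared with genes outside the members. Of the 50-nt windows, 5.3% of MT1E were shared with MT1JP, 2.7% of MT2A with MT2P1 and 29.2% of MT1X with AC026461.1. The sum was 751.58, 794.12 and 574.59 in NC and 1830.03, 1411.67 and 1526.53 in OE, with means of 707 ± 116 and 1589 ± 216 (SD, n = 3 each). The family was thus 2.249 times as high in OE, a difference of 1.17 on the log2 scale. It took 0.0952% to 0.132% of all FPKM in NC libraries and 0.240% to 0.305% in OE libraries.

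The composition of the family also differed. MT2A held 78.4% ± 1.14 of the summed FPKM in NC and 66.3% ± 2.97 in OE, whereas MT1E held 16% ± 0.891 and 29.5% ± 2.62 (SD, n = 3 each). No library of a group overlapped with the other group in either share. The ratio of MT2A to MT1E was 4.6, 4.89 and 5.28 in NC and 2.62, 2.01 and 2.16 in OE. MT1X kept a share of 2.05% ± 0.124 and 2.06% ± 0.173, and MT1A held 1.65% ± 0.215 and 0.652% ± 0.0154.

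**Figure D2:**
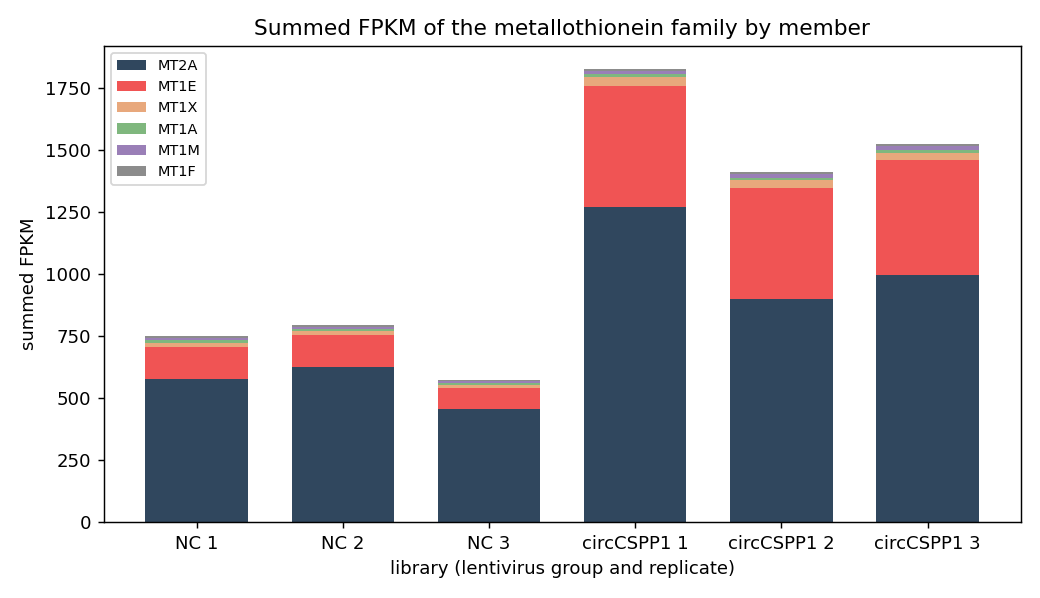
Summed FPKM of the metallothionein genes per library, stacked by member, from 574.59 to 794.12 in lentivirus-NC and from 1411.67 to 1830.03 in lentivirus-circCSPP1. MT2A (dark) is the largest part in every library, and the MT1E part (red) is wider in lentivirus-circCSPP1 (29.5% against 16% of the sum on average).

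MTF1, the activator, differed little. It measured 4.53, 4.88 and 4.71 FPKM in NC and 5.23, 5.62 and 5.55 FPKM in OE. The groups did not overlap, and the log2 fold change was 0.18 (SE 0.10). A transcript level says nothing of how much MTF1 protein is bound to zinc or in the nucleus.

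SLC30A1, the zinc exporter, was higher in OE by a larger ratio than MT2A. It measured 2.01, 1.88 and 1.36 FPKM in NC and 5.48, 5.19 and 4.7 FPKM in OE. The means were 1.75 ± 0.344 and 5.12 ± 0.394 FPKM (SD, n = 3 each), a ratio of 2.93. Its log2 fold change of 1.16 (SE 0.13) understates this ratio because the pseudocount of 1 weighs on low values, and with a pseudocount of 0.01 it was 1.56. SLC30A1 has a principal transcript of 5474 nt, and these values rest on about 271 to 989 fragments per library.

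Of the 10 genes, 8 averaged 1 FPKM or more across the 6 libraries and were tested with limma together with all other such genes. At an adjusted p under 0.05 (Benjamini-Hochberg), MT1E, MT1X, MT1M, MT2A and SLC30A1 were called higher, 5 of 8, where 4.69% of the 12322 tested genes were called higher. The OE libraries lay entirely above the NC libraries in 7 of the 8, against 16% of all tested genes, and entirely below them in 0 of the 8, against 20.5% (36.4% in either direction). The median log2 fold change of the 8 was 0.97 and that of all tested genes -0.03. Because the genes were proposed with this contrast in view, nothing is read from these counts. With NC replicate 1 left out MT2A was no longer called, and with replicate 2 left out MT1M was not.

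Most members were also alike in which library was lowest in NC and which was highest in OE, though not in the full order. Replicate 3 was the lowest NC library for 7 of the 8 tested members, MTF1 being the exception, and for 38.1% of all tested genes. Replicate 1 was the highest OE library for 6 of the 8, the exceptions being MT1M and MTF1, and for 40.7% of all tested genes. The highest NC library was replicate 1 for 5 members and replicate 2 for 3. In OE the lowest library was replicate 2 for 5 members, replicate 3 for 2 and replicate 1 for 1. The members are related genes, so these counts are a description. The ratio of the highest to the lowest NC library was 1.31 to 1.48 for the metallothioneins and SLC30A1 and 1.08 for MTF1.

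To set the members beside the rest of zinc transport, the ZIP and ZnT families were read from the same fit. Of 14 ZIP importers, 11 were tested, and 1 rose and 2 fell in OE (11.4% of all tested genes were called, in either direction). The median log2 fold change of the 11 was -0.20. SLC39A10 (ZIP10), an importer whose transcription is known to be restrained by MTF1 in other cells, measured 36.17, 34.7 and 36.7 FPKM in NC and 10.64, 16.99 and 15.37 FPKM in OE. It fell by 1.29 on the log2 scale (SE 0.16, adjusted p = 0.00547 from limma), to 0.40 times the NC mean. The call held under all 17 alternatives run on it.

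SLC39A8 (ZIP8), which carries zinc and manganese, measured 22.69, 22.53 and 19.15 FPKM in NC and 11.75, 14.74 and 14.6 FPKM in OE. It fell by 0.61 on the log2 scale (SE 0.13, adjusted p = 0.0237 from limma). SLC39A14 (ZIP14), which carries zinc, manganese and iron, went the other way, from 141.45, 140.81 and 132.48 FPKM to 196.78, 312.98 and 236.19 FPKM. Its log2 fold change was 0.82 (SE 0.16, adjusted p = 0.0193 from limma). Leaving out any NC library or OE replicate 3 ended the limma calls of SLC39A8 and SLC39A14, with adjusted p values of 0.0593 to 0.115, and so did testing with no filter or with no moderation of the variance (0.0557 to 0.0975).

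The other 8 tested ZIP genes did not pass. Among them, SLC39A6 and SLC39A7 were at 145 ± 1.503 and 139 ± 2.74 FPKM in NC and 133 ± 19.4 and 121 ± 19.8 FPKM in OE (SD, n = 3 each). SLC39A1 was at 250.49 FPKM in NC replicate 2 and between 98.09 and 104.33 FPKM in the other 5 libraries.

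Of 10 other zinc exporters, 7 were tested, and 2 fell, against 6.66% of all tested genes called lower. The median log2 fold change of the 7 was -0.13. SLC30A3 (ZnT3), which loads zinc into vesicles, measured 6.66, 6.65 and 5.27 FPKM in NC and 3.35, 2.81 and 3.4 FPKM in OE, and fell by 0.78 on the log2 scale (SE 0.13, adjusted p = 0.012 from limma). TMEM163, a zinc efflux protein, measured 2.4, 2.16 and 2.36 FPKM against 1.24, 0.67 and 0.73 FPKM, and fell by 0.83 (SE 0.14, adjusted p = 0.0124). The means of TMEM163 had a ratio of 0.38, and its log2 fold change was -1.34 with a pseudocount of 0.1 and -1.43 with 0.01. The limma calls of SLC30A3 and TMEM163 were both lost when NC replicate 1 or 2 was left out, with adjusted p values of 0.0568 to 0.07, and that of TMEM163 also without NC replicate 3 (0.0566) or OE replicate 3 (0.0567) and with no moderation of the variance (0.0529). SLC30A5, SLC30A6, SLC30A7 and SLC30A9, which act at vesicles and organelles, had log2 fold changes of -0.13 to 0.0076, and neither they nor SLC30A4 passed. SLC30A1, a member chosen with this contrast in view, had the largest log2 fold change of the tested zinc exporters, and SLC39A10 the lowest of the tested importers. The place of SLC30A1 is therefore only a description.

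**Figure D3:**
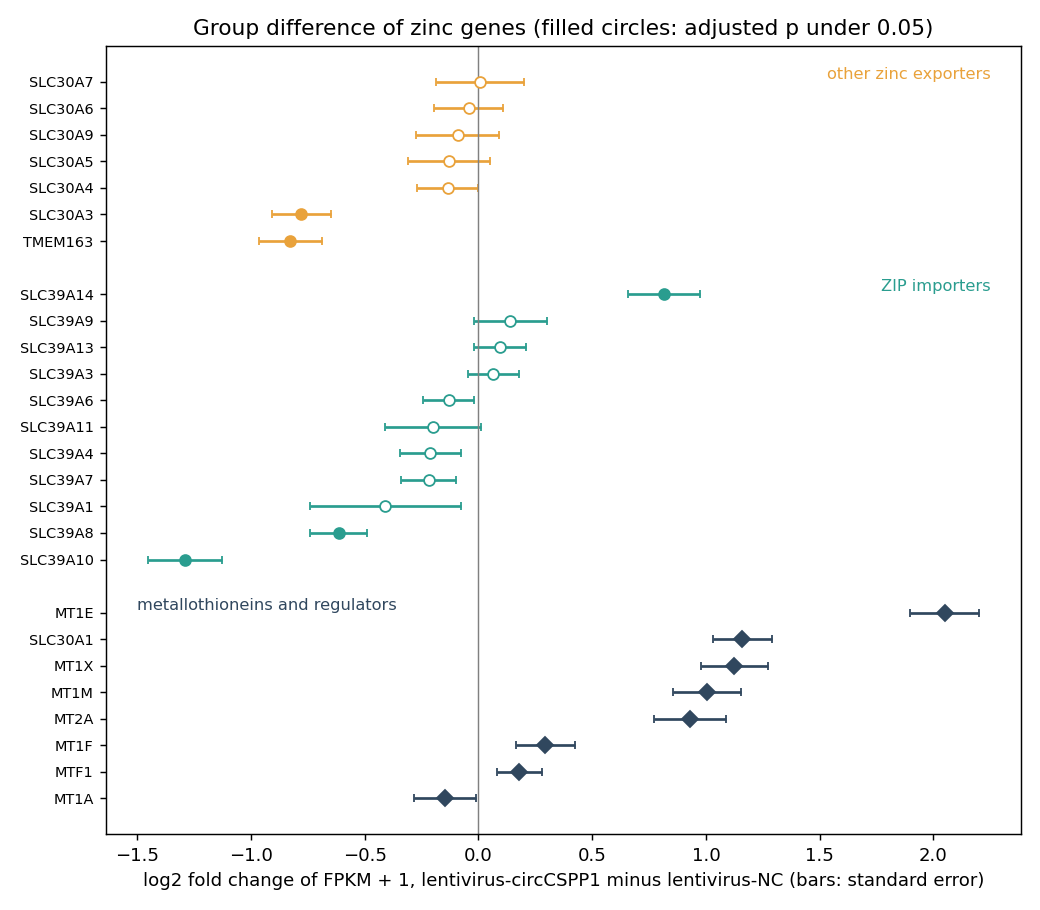
Log2 fold change of FPKM + 1 (lentivirus-circCSPP1 minus lentivirus-NC, horizontal axis) with standard errors for the 8 tested members (diamonds, all filled whatever their adjusted p) and the tested ZIP importers and other zinc exporters (circles, filled at an adjusted p under 0.05). MT1E lies farthest to the right at 2.05, SLC30A1 at 1.16, and SLC39A10 farthest to the left at -1.29.

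Copper is bound by metallothioneins too, and genes of copper handling were read as a second metal. Of 11 tested genes, 0 passed an adjusted p of 0.05 in limma, against 11.4% of all tested genes. An unadjusted p under 0.05 was reached by 2, both lower, as it was by 1970 of the 12322 tested genes in that direction. The median log2 fold change of the 11 was -0.18. Fitting without moderation of the variance also called 0, whereas 3 were called after the correction for GC content and length and 5 without OE replicate 1. SOD1, the copper- and zinc-dependent superoxide dismutase and the most abundant of them, measured 394 ± 8.63 FPKM in NC and 348 ± 29.2 FPKM in OE (SD, n = 3 each; log2 fold change -0.18, adjusted p = 0.182).

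The genes beside the cluster at 16q13 were read to see whether the whole neighbourhood differed. Of 7 tested genes, 0 passed an adjusted p of 0.05 in limma, against 11.4% of all tested genes. An unadjusted p under 0.05 was reached by 0 of the 7, against 1507 higher and 1970 lower among the 12322 tested genes. The median log2 fold change of the 7 was -0.05. Without moderation of the variance 0 passed as well, and 2 did without OE replicate 1. BBS2, on the MT4 side of the cluster, measured 51.7 ± 2.97 and 49.8 ± 1.34 FPKM, and NUP93, beyond MT1X, 71.9 ± 3.75 and 62.8 ± 3.28 FPKM in NC and OE (SD, n = 3 each). All OE libraries lay below all NC libraries for 1 of the 7, NUP93, against 20.5% of all tested genes. A count of 0 among 7 genes does not show an unchanged neighbourhood.

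Glucocorticoids are a further known inducer of metallothionein genes, and the receptor NR3C1 with common targets was read for this reason. Of the 10 tested genes, 4 rose and 2 fell, against 4.69% and 6.66% of all tested genes. NR3C1 itself measured 32.5 ± 0.557 and 34.98 ± 5.68 FPKM (SD, n = 3 each), and FKBP5 14.6 ± 0.477 and 15.8 ± 7.45 FPKM, and neither passed. TSC22D3, which encodes the glucocorticoid-induced leucine zipper, measured 14.44, 13.34 and 11.43 FPKM in NC and 29.2, 33.21 and 32.61 FPKM in OE. It rose by a log2 fold change of 1.22 (SE 0.12, adjusted p = 0.00234 from limma), a call that held under all 17 alternatives.

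DUSP1, a phosphatase that is also an immediate early gene, rose by 0.75, ANGPTL4 by 0.92 and KLF9 by 0.47 on the log2 scale (adjusted p = 0.0107, 0.0285 and 0.0296 from limma). The kinase gene SGK1 fell by 0.47 and CRISPLD2 by 0.61 (adjusted p = 0.0325 and 0.0237). The list therefore held genes of both directions. With a library left out, between 1 and 7 of its genes were called, the fewest without NC replicate 1 or 2 or OE replicate 3, and the replicate block left 3.

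Metal response elements were searched in the promoters, from 250 bases before to 50 bases after the start site, in RefSeq windows on GRCh38.p14. Windows were found for 5 of the 10 genes, MT2A, MT1X, MT1H, MTF1 and SLC30A1. RefSeq and GENCODE starts can differ. The MT2A window (chr16:56608334-56608633) lies inside its GENCODE gene, and the SLC30A1 window (chr1:211579112-211579411) lies outside its own. Transcript lengths, shared windows and fragment numbers above follow GENCODE. The core of the element was searched as TGCACNC or TGCGCNC on both strands, and no matches within a window overlapped each other. MT2A and MT1H held 8 matches each, MT1X 4, SLC30A1 2 and MTF1 0. At least 1 match was found in 29.5% of the 35114 windows, at least 2 in 8.6%, at least 4 in 0.601% and at least 8 in 0.0199%. One match of each member that has any, beginning between -54 and -49 from the start site, is shown to compare their surroundings, with the core in capitals and each read on the strand that spells it.
MT2A (chr16:56608520-56608546, plus strand): gcggggctttTGCACTCgtcccggctc
MT1X (chr16:56682407-56682433, plus strand): gcggggcctcTGCGCCCggccctcttc
MT1H (chr16:56669751-56669777, plus strand): gcagggtctcTGCACCCggctccctcc
SLC30A1 (chr1:211579194-211579220, plus strand): aactttgcttTGCACTCggaacccccg

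In the 3 metallothionein windows this match began at nearly the same place, at -54 in MT2A and at -53 in MT1X and MT1H. MT1X and MT1H also shared a match on the opposite strand at -78, and MT2A had its own at -88.
MT2A (chr16:56608486-56608512, minus strand): gggcgctgccTGCACACgccccgcgct
MT1X (chr16:56682382-56682408, minus strand): gcctcgtcctTGCACCCgcccctgctg
MT1H (chr16:56669726-56669752, minus strand): gccccaccctTGCACCCgacccactga

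MT1H, listed at 0 in all libraries, thus held as many core matches as MT2A, the most abundant member. Windows were found for 4 of the 5 zinc transporter genes called above. Matches lay in 1 of 3 windows of SLC39A8, in both windows of SLC30A3 and in none of TMEM163. For SLC39A10, shown because it fell most, 1 of its 2 windows held a match, which begins 33 bases after the start site.
SLC39A10 (chr2:195657249-195657275, plus strand): ggagaggagaTGCACACggcactcgag
A match of letters is not a bound site, and the expression values here do not measure binding.

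**Figure D4:**
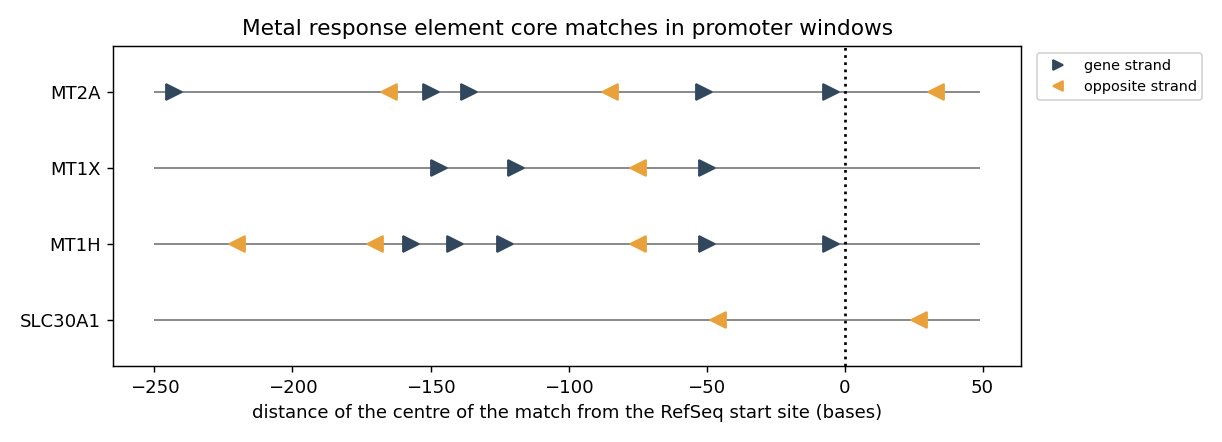
Position of metal response element core matches relative to the RefSeq start site (bases, horizontal axis) in the promoter windows of MT2A, MT1X, MT1H and SLC30A1, with triangles pointing right for the gene strand and left for the opposite strand. The metallothionein windows hold 8, 4 and 8 matches, and SLC30A1 holds 2.

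Among the other tested genes, the profile closest to the summed metallothionein level over the 6 libraries was sought as the smallest root mean square difference between centred log2(FPKM + 1) values. The closest were EGR1 (0.0599), KLHL21 (0.097), DDIT4 (0.0982), DUSP5 (0.112) and TPRA1 (0.12). For comparison, MT1X differed by 0.0859, SLC30A1 by 0.108, MT2A by 0.128, MT1M by 0.204 and MT1E by 0.447. KLHL21, which encodes an adaptor of a ubiquitin ligase, measured 19.05, 19.83 and 11.78 FPKM in NC and 41.7, 31.43 and 35.78 FPKM in OE. DDIT4, an inhibitor of mTORC1 signalling, measured 163.37, 174.21 and 142.79 FPKM against 475.81, 358.34 and 365.58 FPKM. In EGR1, KLHL21, DDIT4, DUSP5 and TPRA1, replicate 3 was the lowest NC library and replicate 1 the highest OE library, as for the summed metallothioneins. The 6 libraries form 2 groups, so the likeness rests largely on the difference between groups and is a description. The genes were picked for their likeness over these libraries, so the shared library order follows in part from the choice.

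**Figure D5:**
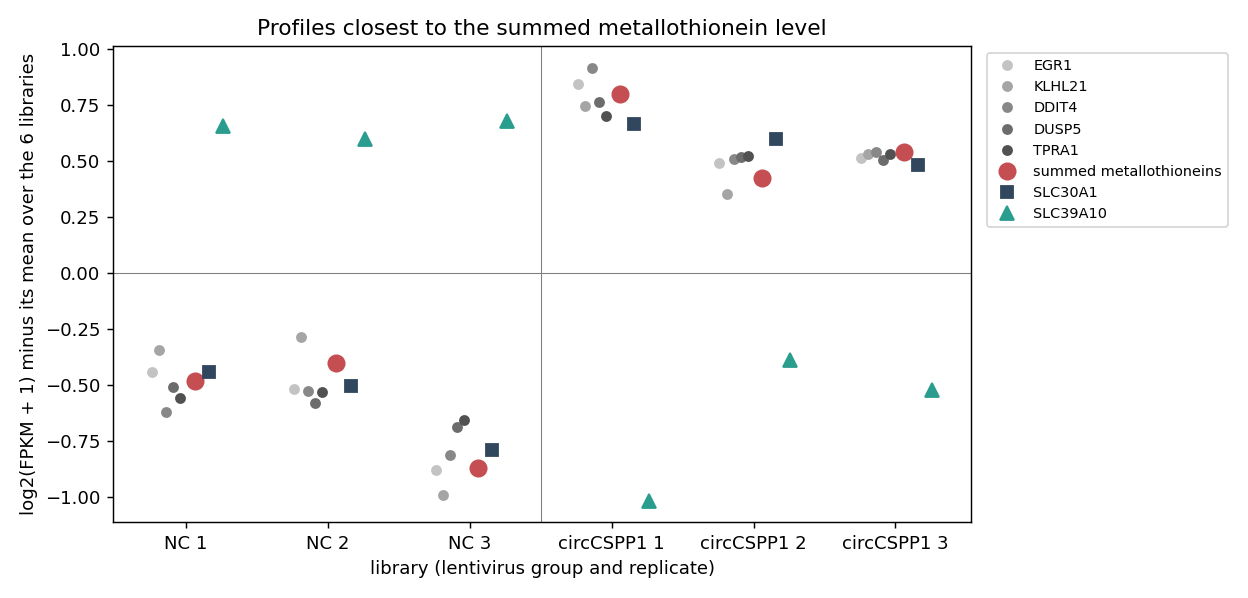
Log2(FPKM + 1) minus its mean over the 6 libraries (vertical axis) for the summed metallothioneins (red), SLC30A1 (squares), SLC39A10 (triangles) and the 5 other genes with the closest profiles (grey), by library. The summed metallothioneins, SLC30A1 and the grey genes are below 0 in all lentivirus-NC libraries, lowest in replicate 3, and above 0 in all lentivirus-circCSPP1 libraries, and SLC39A10 is the reverse.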

How the data were processed

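Polyadenylated RNA of 6 DU145 libraries (3 per group) was sequenced from both ends. Gene-level FPKM values, rounded to 2 decimals, were deposited by the authors. The submitters' processing notes name the build hg38, and the aligner, quantifier and annotation are not given in the sources used here. Count models do not apply to FPKM. Each column was tied to its sample through group and replicate number.

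After log2(FPKM + 1), the 12322 genes averaging at least 1 FPKM entered a two-sided limma fit (version 3.58.1, R 4.3.3, eBayes trend, no covariate) with Benjamini-Hochberg adjustment over all of them. With 3 libraries against 3, an exact permutation test cannot give a p below 0.1. On simulated data for 12372 genes, 99% of 100 genes changed by a log2 fold of 1, 100% of 100 changed by 2 and 0.0657% of unchanged genes were called. The simulation gave every gene the same dispersion (spread beyond counting error) of 0.02, and no library stood apart. These rates therefore need not hold for the real libraries.

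Members and gene lists were chosen with earlier results of these data known. The text names all members, genes of the other lists with an adjusted p under 0.05 (or the most abundant gene where none passed) and the 5 closest profiles, except that for the 16q13 list the gene this rule takes is not reported here. Marker genes come from their own lists. The other genes named (BBS2, NUP93, NR3C1, FKBP5, MT1B, MT1HL1, MT4, and ZIP and ZnT genes that did not pass) were added after their values were seen.

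Depth was the step on which FPKM multiplied by length fell on whole multiples, within 0.15 of a step, in single-transcript genes under 800 nt (93.2% to 98.8% of values). It covers counting error only, as do fragment numbers. APPRIS principal transcripts came from GENCODE release 29. SCO2 had 2 rows, of which the first, also the more abundant, was used. Alternatives were other pseudocounts, filters, scalings and variance models, a replicate block, a loess correction for transcript GC content and length, and leaving out each library. Figures were drawn with matplotlib 3.10.9.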

Additional observations from a re-analysis of the deposited data

How the results depend on the processing

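The log2 fold changes of the 8 tested members kept their direction under every alternative run (17 each, 16 for SLC30A1, which a mean of at least 5 FPKM removes), from 1.86 to 2.15 for MT1E, from 0.79 to 1.04 for MT2A and from -0.23 to -0.048 for MT1A. MT2A was called under all but 3 of them, its adjusted p reaching 0.0636 with no filter on low values, 0.0818 without moderation of the variance and 0.0544 without lentivirus-NC replicate 1. MT1M had an adjusted p of 0.0536 without lentivirus-NC replicate 2. The summed metallothionein difference stayed between 1.03 and 1.26, and 4 or 5 members were called higher. Because the members were chosen with this contrast in view, their calls only describe the fit and are no support for a difference.

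Without moderation of the variance, 1 ZIP importer, 1 other zinc exporter, 3 genes of the glucocorticoid list and 834 genes in all were called, against 3, 2, 6 and 1399. With no filter 1 ZIP importer was called, and with a mean of at least 5 FPKM 0 other zinc exporters, since SLC30A3 and TMEM163 then go untested. The correction for GC content and length called 3 copper genes and 3500 genes in all. With 1 library left out, the calls ran from 1 to 4 for ZIP importers, 0 to 2 for other zinc exporters, 0 to 5 for copper handling, 0 to 2 for the 16q13 genes, 1 to 7 for the glucocorticoid list and 293 to 3514 for all genes, and the cause was not tested.

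The replicate numbers did not pair the libraries, since deviations of same-numbered libraries correlated at 0.073, 0.007 and 0.057, and not every library correlated best with its own number. With the replicate block 923 genes and 3 of the glucocorticoid list were called.

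In fragments instead of FPKM, MT2A held 81.2% and MT1E 14.8% of the family in lentivirus-NC, and 69.2% and 27.6% in lentivirus-circCSPP1. In FPKM, leaving out a library gave 78.0% to 79.0% for MT2A and 15.6% to 16.4% for MT1E in lentivirus-NC. In lentivirus-circCSPP1 it gave 64.6% to 67.5% and 28.4% to 31.0%. A longer motif, in which the core holds A or C in place of N and is followed by GG or CG, left 2 matches in MT2A, 3 in MT1X, 3 in MT1H and 0 in SLC30A1.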
